A study of Mus musculus with 14 samples.

Results

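Il17b, Clca1, Chil1 and Pla1a encode 4 secreted proteins, and their RNA was described here in the mouse mammary gland between 3 and 7 weeks of age. They were selected on these values themselves, because they stood about 10-fold higher than at 3wk or were higher from an early week on, so the differences of the 4 genes between ages are a description and were not tested. Probe sets whose platform annotation names exactly 1 of the 4 symbols were taken, which gave 5 of the 22690 probe sets on the array: 1 each for Il17b (1431693_a_at), Chil1 (1451537_at) and Pla1a (1417785_at), and 2 for Clca1 (1416306_at and 1459889_at). All but 1459889_at passed the filter on low values, and a gene low at 3wk could pass it only through the ages at which it was high.

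RNA came from whole inguinal mammary glands (number 4), with the lymph nodes taken out, of female mice of the outbred CD1 strain that had received no treatment. The 14 Affymetrix arrays were 3 per age (lettered A, B and C), except at 5wk with 2 (A and B). Each carried RNA pooled from 3 or more mice, and the sources used here do not say whether any mouse entered more than 1 pool. A value is the ratio of a probe set to the median it had on these 14 arrays, so ages can be compared within a gene, but levels cannot be compared between genes.

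During puberty in the mouse the mammary ducts lengthen and branch into a pad of fat under the control of ovarian steroids and growth hormone. The ducts have an inner luminal layer, which faces the lumen and later makes milk, and an outer basal layer. Luminal cells release cytokines, enzymes and glycoproteins as well as milk proteins, and these act on neighbouring cells or join the fluid in the duct. In a whole gland, more cells of a type and more RNA per cell cannot be told apart, and neither the cell that made a transcript nor the protein was measured.

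At 5wk every array lay above every 3wk array and every 4wk array for all 4 genes. The 4 genes reached that level by different routes. Chil1 and Pla1a were already higher at 4wk, Il17b at 4wk was high on 1 array of 3, and Clca1 was under the filter's mark for low values on all arrays of 3wk and 4wk. After 6wk they parted again: Chil1 was at its highest at 7wk, Pla1a was level, Il17b was lower, and the Clca1 arrays spread over a wide range.

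Il17b encodes a cytokine of the interleukin-17 family that binds the receptor subunit Il17rb. Its ratios at 3wk were 0.0519, 0.0651 and 0.0631 on arrays A, B and C. At 4wk they were 0.129, 0.0638 and 0.917, so that array C stood apart from A and B. The 5wk arrays gave 2.90 and 4.02, and the 6wk arrays 2.27, 4.34 and 8.63, the highest values of the gene. At 7wk Il17b was back to 2.08, 0.940 and 1.06, below every 6wk array and above every 4wk array. The age means were 0.0600 ± 0.00711 (SD, n = 3), 0.370 ± 0.475 (n = 3), 3.46 ± 0.791 (n = 2), 5.08 ± 3.25 (n = 3) and 1.36 ± 0.624 (n = 3). On the log2 scale Il17b was higher than at 3wk by 5.84 (standard error of the model, SE, 0.90) at 5wk, a 57.2-fold difference of geometric means. Its difference was 6.20 (SE 0.80) at 6wk and 4.41 (SE 0.80) at 7wk. From 6wk to 7wk Il17b was 3.45-fold lower, a log2 difference of -1.79 (SE 0.80), which was -1.13 with the hybridisation controls described at the end as a covariate.

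Clca1 encodes a secreted protein of goblet cells and other epithelia that cleaves itself and modulates calcium-activated chloride channels. By the probe set 1416306_at its ratios were 0.103, 0.370 and 0.0692 at 3wk and 0.122, 0.134 and 0.182 at 4wk. All 6 of these values are near background, so a change between the first 2 ages could not be seen. The 5wk arrays gave 2.20 and 4.09 and the 6wk arrays 3.92, 1.63 and 6.32. At 7wk the arrays disagreed, at 0.355, 3.40 and 1.72, and array A lay within the range of 3wk. The age means were 0.181 ± 0.165 (SD, n = 3), 0.146 ± 0.0317 (n = 3), 3.14 ± 1.33 (n = 2), 3.95 ± 2.34 (n = 3) and 1.83 ± 1.53 (n = 3). Clca1 was 20.9-fold higher at 5wk than at 4wk, a log2 difference of 4.38 (SE 0.92), but 1.23-fold with low values set to the filter's mark, as described below. Its 7wk mean was higher than that of 3wk by 3.21 (SE 0.82) on the log2 scale, and by 4.13 without array A of 7wk.

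The other Clca1 probe set, 1459889_at, ran the opposite way. Its ratios were 1.82, 1.05 and 2.61 at 3wk and 0.755 and 1.15 at 5wk, with 1.49, 2.13 and 0.313 at 4wk between them. At 6wk it gave 0.955, 0.734 and 0.738, and at 7wk 0.739, 1.52 and 0.481. With both probe sets averaged, the log2 difference of Clca1 from 3wk was 1.78 at 5wk and 1.07 at 7wk. Every value of Clca1 given outside this paragraph is that of 1416306_at.

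Chil1 encodes a chitinase-like glycoprotein, also called YKL-40 or CHI3L1, which binds chitin but lacks the activity to cut it and is secreted by macrophages, neutrophils and several epithelia, including that of the mammary gland. Its upstream sequence is shown because Chil1 was the only 1 of the 4 symbols that matched the RefSeq promoter table. Chil1 also had the largest difference of the 4 at 4wk and at 7wk. The 250 bases before its start lie at chr1:134181906-134182155 on the plus strand of GRCm38.p6 (RefSeq), and the capitals mark a TATAA motif.
Chil1 upstream: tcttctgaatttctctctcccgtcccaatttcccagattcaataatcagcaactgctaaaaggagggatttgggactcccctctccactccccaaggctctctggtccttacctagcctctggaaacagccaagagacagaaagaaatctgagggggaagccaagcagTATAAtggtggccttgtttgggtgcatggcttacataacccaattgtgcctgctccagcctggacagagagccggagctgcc
The TATAA motif starts 82 bases before the gene's start, and 22.8% of 32851 promoters hold it in the same window on either strand. An E-box (CANNTG) occurs as CAACTG and CAATTG, 201 and 42 bases before the start, and 66.2% of promoters hold one. Searched on both strands, the window holds no STAT motif (TTCNNNGAA, in 7.02% of promoters), no C/EBP motif (TTGCNNAA, 9.56%), no ETS motif (AGGAAG, 29.5%) and no steroid receptor motif (TGTTCT, 16.1%). These are matches of letters in a short window and were not set against binding data.

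The ratios of Chil1 at 3wk were 0.0672, 0.0717 and 0.0244. At 4wk they were 0.574, 0.323 and 0.502, each above every 3wk array. The 5wk arrays gave 1.14 and 1.21 and the 6wk arrays 1.25, 1.29 and 0.863, so these ages overlapped. At 7wk the ratios of 3.12, 2.31 and 1.88 lay above all earlier arrays. The age means were 0.0544 ± 0.0261 (SD, n = 3), 0.466 ± 0.129 (n = 3), 1.17 ± 0.0481 (n = 2), 1.13 ± 0.236 (n = 3) and 2.44 ± 0.631 (n = 3). Chil1 was thus higher in steps, with a log2 difference of 3.21 (SE 0.39) between 3wk and 4wk, 1.37 (SE 0.43) between 4wk and 5wk and 1.09 (SE 0.39) between 6wk and 7wk. Between 5wk and 6wk the log2 difference was -0.07 (SE 0.43), and from 3wk to 7wk Chil1 was 48.7-fold higher.

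Pla1a encodes a phospholipase of the pancreatic lipase family that cuts phosphatidylserine and so makes the lipid mediator lysophosphatidylserine. Its ratios at 3wk were 0.221, 0.174 and 0.169, and those at 4wk were 0.360, 0.397 and 0.400. The 5wk arrays gave 1.03 and 0.968, the 6wk arrays 1.42, 1.12 and 1.69 and the 7wk arrays 1.56, 1.58 and 1.53. Each age up to 6wk lay wholly above the age before it, and 6wk and 7wk overlapped. The age means were 0.188 ± 0.0287 (SD, n = 3), 0.386 ± 0.0223 (n = 3), 1.0 ± 0.0453 (n = 2), 1.41 ± 0.286 (n = 3) and 1.56 ± 0.0285 (n = 3). With no floor on low values, Pla1a had the smallest differences of the 4 genes from 5wk on, and the tightest arrays. On the log2 scale these differences were 2.42 (SE 0.18) at 5wk, 2.90 (SE 0.16) at 6wk and 3.06 (SE 0.16) at 7wk. Clca1 was close to it at 7wk, at 3.21 (SE 0.82). With low values set to the filter's mark, as described below, Clca1 stood at 0.36, 0.61 and -0.23 at these ages and Il17b at 1.08 at 7wk. Pla1a could not be given that floor, since its level was not recovered, so the order holds only without it. The 7wk mean of Pla1a was 8.35-fold that of 3wk.

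**Figure D1:**
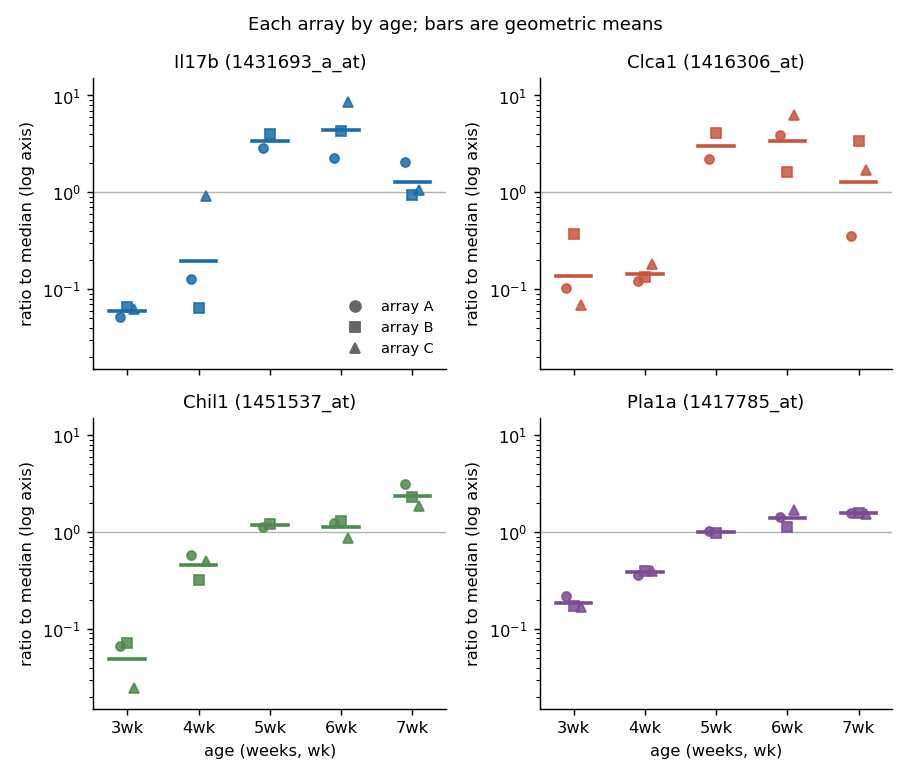
Ratio to the median of the probe set (log axis) on each array by age in weeks for the 4 genes. Circles, squares and triangles are arrays A, B and C and bars are geometric means. Every 5wk array lies above every 3wk and 4wk array in each panel, and Il17b of array C at 4wk (0.917) and Clca1 of array A at 7wk (0.355) stand apart from their ages.

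The share of the largest log2 difference from 3wk that was already present at each age sums up these courses. At 4wk it was 57.3% for Chil1, 34.2% for Pla1a, 27.7% for Il17b and 1.25% for Clca1, whose values at both ages were near background. At 5wk it was 95.8% for Clca1 and 94.1% for Il17b, whose means were highest at 6wk, and 81.7% for Chil1 and 79.1% for Pla1a, highest at 7wk. All later arrays lay above all 3wk arrays in 2 of the 4 genes at 4wk, where 10.7% of the 18539 tested probe sets did the same. This count was 4 of 4 at 5wk (19.5% of tested probe sets), 4 of 4 at 6wk (20.5%) and 3 of 4 at 7wk (18.5%), Clca1 being the exception. For 5wk against 4wk it was 4 of 4 (15.7%), and for 6wk against 5wk 1 of 4, Pla1a (17.8%). At 7wk Chil1 lay above all 6wk arrays (10.3% of probe sets) and Il17b below all of them (10.5%). These contrasts chose the genes or overlap with those that did, so the counts support nothing.

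Among the 16949 tested probe sets that name 1 gene, 62 (0.366%) had a largest difference from 3wk of 10-fold or more. Il17b ranked 5, Chil1 6 and Clca1 9 in that order. The ranks of Il17b and Clca1 rest on 3wk values near background, and with low values set to the filter's mark their folds at 6wk were 7.30 and 1.53, under the 10-fold mark. Pla1a, taken for its early and steady course, ranked 83 and lay under the 10-fold mark. The probe sets nearest the mark were Hdac11 and Sdc1 just above it, both at 10.1-fold, and Btn1a1 (9.96-fold) and Bdh1 (9.92-fold) just below it.

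**Figure D2:**
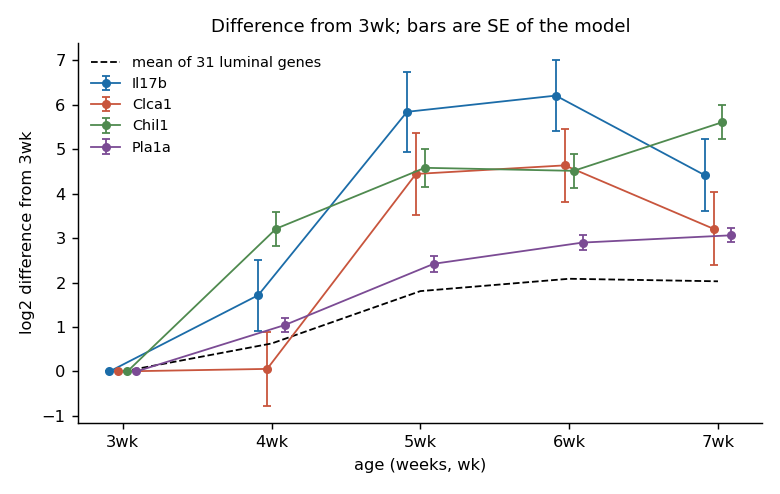
Difference from 3wk (log2) of each gene by age in weeks, with bars of 1 SE of the model, and the mean over 31 luminal marker genes as a dashed line. Chil1 stands highest at 4wk (3.21) and 7wk (5.60) and Il17b at 5wk (5.84) and 6wk (6.20), while Clca1 at 4wk is drawn at 0.06 from values near background.

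Folds against a value near the background of an array depend on that background. For 9646 probe sets, Il17b and both of Clca1 among them, the ratios on an array were whole multiples of a smallest step, which gave back the level before division, counted in steps. The step has its own size on each array, differing by up to 1.70-fold between arrays, so a number of steps is set against the mark within its array and is not normalized between arrays. Chil1 and Pla1a were not recovered. Il17b stood at 17 to 23 steps at 3wk, at 40, 22 and 276 at 4wk, and at 937 and 1212 at 5wk. It reached 823, 1546 and 4155 steps at 6wk and 1059, 345 and 500 at 7wk, so that all arrays from 5wk on were above the filter's mark of 200 steps. Clca1 stood at 6 to 27 steps at 3wk and 9 to 13 at 4wk. Only 4 of its 14 arrays passed 200 steps, with 293 on 5wk B, 338 on 6wk A, 723 on 6wk C and 297 on 7wk B, and the other probe set of Clca1 stood at 22 to 222 steps throughout.

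With all values under 200 steps set to 200, a floor chosen after the data were seen, Il17b was higher than at 3wk by 2.50 at 5wk, 2.87 at 6wk and 1.08 at 7wk on the log2 scale. The same floor left Clca1 with 0.36 at 5wk, 0.61 at 6wk and -0.23 at 7wk. All 3wk arrays of Clca1 were then at the floor, which lies at a different ratio on each array because the steps differ, so its differences partly hold that of the floors. Most of the Clca1 difference thus lay below the mark, while at 5wk and 6wk Il17b kept a difference above it.

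**Figure D3:**
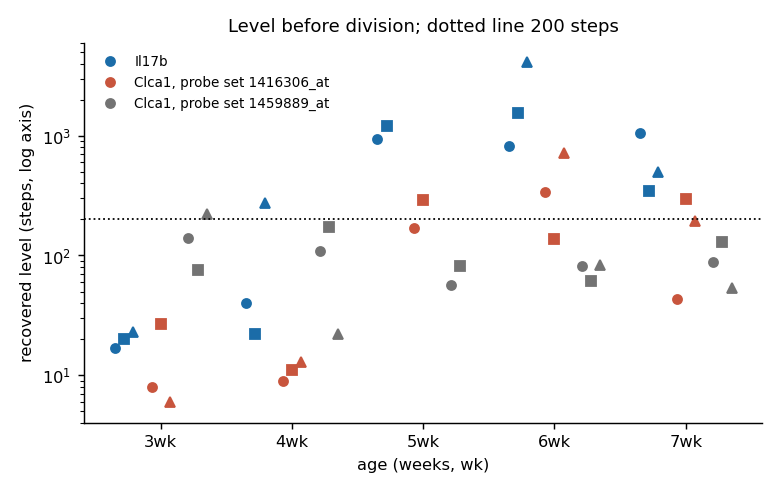
Recovered level before division (steps, log axis) on each array by age in weeks for Il17b and for both probe sets of Clca1; symbols are arrays A, B and C as circles, squares and triangles, and the dotted line is the mark of 200 steps. Il17b lies above the line on every array from 5wk on, Clca1 by 1416306_at on 4 arrays, and 1459889_at on 1 array of 3wk (222 steps).

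The family of Il17b was followed through its receptors and the genes downstream of them. The 5 receptor subunits (Il17ra, Il17rb, Il17rc, Il17rd and Il17re) gave 0 calls at 5wk and 0 at 7wk against 3wk by limma at an adjusted p under 0.05, where 4.62% of 10703 genes were called at 5wk (3.00% upwards, 1.62% downwards) and 10.1% at 7wk (7.09% upwards, 2.97% downwards). Without 5wk A or without 5wk B, 160 and 145 genes were called at 5wk in place of 494. At 6wk, where 14.1% of all genes were called (9.80% upwards, 4.26% downwards), 1 of the 5 was called, Il17ra at 0.81 (SE 0.25, adjusted p = 0.0497), a call lost when any 1 of 12 arrays was left out. The median receptor difference at 6wk was 0.39, and Il17re differed by 0.45 (SE 0.15, adjusted p = 0.0614). At an unadjusted p under 0.05 (limma) the receptors gave 0 at 5wk and 1 at 7wk, beside 1999 and 2559 of all 10703 genes. The receptor at 7wk was Il17re at 0.32 (SE 0.15, adjusted p = 0.206). Il17rb, the receptor of Il17b, differed by 0.10 (SE 0.30) at 5wk and -0.30 (SE 0.27) at 7wk. Il17ra, the subunit shared by most receptors of the family, differed by 0.32 (SE 0.28) and 0.53 (SE 0.25), Il17rc by 0.20 (SE 0.64) and -0.47 (SE 0.57), and Il17rd by -0.63 (SE 0.36) and 0.22 (SE 0.32). The median receptor difference was 0.11 at 5wk and 0.22 at 7wk, beside 0.04 and 0.09 over all genes. Of the other ligands, Il17a was tested and not called (0.13, SE 0.32, at 5wk and 0.30, SE 0.28, at 7wk; limma, 0 at an unadjusted p under 0.05), and Il17d and Il25 were below the filter.

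The shares of all genes called upwards against which the counts of rises in this and the following lists are read were 3.00% (5wk), 9.80% (6wk) and 7.09% (7wk). For falls the shares were 1.62%, 4.26% and 2.97%. Counts at an unadjusted p under 0.05 (limma) are read against 1999, 3088 and 2559 of 10703 genes at these ages. Among 12 tested genes of IL-17 signalling, limma called 0 at 5wk (2 at an unadjusted p under 0.05) and 1 at 7wk, Rela, the NF-kappaB subunit. Rela was higher by 0.66 (SE 0.19), a call lost when any 1 of 9 arrays was left out (all but 4wk B, 4wk C, 5wk A, 5wk B and 6wk C). Among 10 tested genes that IL-17 cytokines are known to induce, Lcn2 rose by 2.05 (SE 0.22, adjusted p = 0.000622) at 5wk and 2.52 (SE 0.19) at 7wk. It encodes lipocalin 2, which binds bacterial iron carriers and is counted among the secreted luminal proteins below as well. Mmp3, the matrix protease stromelysin, rose by 1.47 (SE 0.24) at 7wk. The median of these 10 genes was 0.33 at 5wk and -0.06 at 7wk. At 6wk 3 of the 10 rose (9.80% of all genes rose), with a median of 0.20 over the list. They were Lcn2 (2.41, SE 0.19), S100a8 (1.13, SE 0.28, lost without 3wk A or 3wk C) and Mmp3 (0.97, SE 0.24, lost without 3wk A, 3wk C or 6wk C). The chemokine genes Ccl2 and Ccl7 stood at -0.89 (SE 0.33) and -0.67 (SE 0.20) at 7wk without a call.

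Clca1 belongs to a cluster of related genes, which follow each other in the order Clca3a1, Clca3a2, Clca3b, Clca4b, Clca4a, Clca1 and Clca2 among the coding genes of the RefSeq table of GRCm38.p6. Clca3a1 rose by 1.95 (SE 0.34, adjusted p = 0.00456) and Clca3a2 by 2.63 (SE 0.37, adjusted p = 0.00140) from 3wk to 7wk, 2 of the 2 tested, with a median of 2.29. At 5wk limma called 0 of the 2 (1 without 4wk C or without 7wk A), both with an unadjusted p under 0.05, at 1.0 (SE 0.38, adjusted p = 0.173) and 1.50 (SE 0.41, adjusted p = 0.0658). At 6wk limma called 1 of the 2 (9.80% of all genes rose), Clca3a2 at 1.35 (SE 0.37, adjusted p = 0.0330). That call was lost without 3wk A, 3wk C or any array of 6wk, and Clca3a1 stood at 0.73 (SE 0.34, adjusted p = 0.178). Clca3b was below the filter. Clca3a1 by 1417853_at had ratios of 0.485, 0.305 and 1.05 at 3wk and of 5.85, 2.89 and 3.11 at 7wk, with 0.507, 0.903 and 2.0 at 6wk. Its other probe set, 1417852_x_at, had a smaller span, from 0.691, 0.550 and 0.666 at 3wk to 1.80, 1.12 and 1.21 at 7wk, and the gene's value is the mean of both on the log2 scale. Clca3a2 had ratios of 0.308, 0.526 and 0.435 at 3wk, 0.893, 1.29 and 1.02 at 6wk and 4.47, 1.96 and 1.93 at 7wk, so that every 7wk array lay above every 6wk array. From 6wk to 7wk the differences of both (1.22 and 1.28) were not called (limma adjusted p = 0.162 and 0.176), while Clca1 differed by -1.43 (SE 0.82). Clca3a1 and Clca3a2 are near-identical copies that can share probes, so which of them changed is uncertain, and with the hybridisation controls as a covariate neither was called at 7wk.

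**Figure D4:**
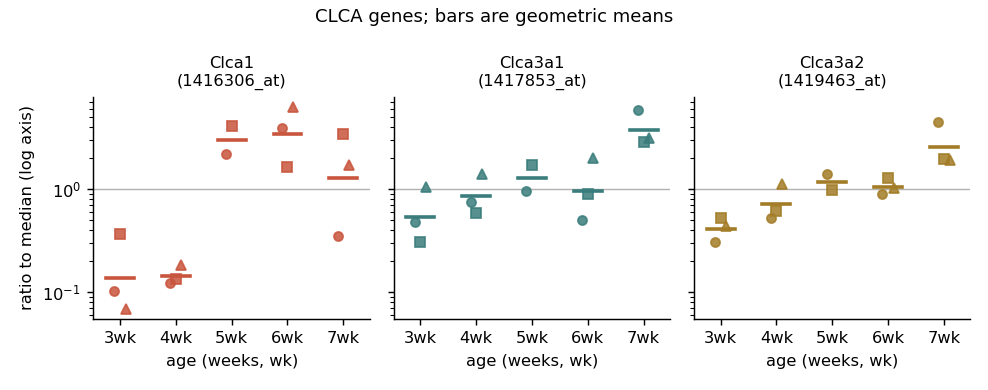
Ratio to the median (log axis) on each array by age in weeks for Clca1, Clca3a1 and Clca3a2, with arrays A, B and C as circles, squares and triangles and geometric means as bars. Clca1 stands highest at 5wk and 6wk, whereas both other genes stand highest at 7wk, where Clca3a2 reaches 4.47, 1.96 and 1.93.

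Of 7 tested chloride channels and transporters, 1 was called at 5wk (2 without 7wk A) and 3 at 7wk, with medians of 0.59 and 0.60. Ano1, the calcium-activated chloride channel that Clca1 protein is known to modulate, rose by 2.16 (SE 0.22, adjusted p = 0.000583) at 5wk and 2.42 (SE 0.20) at 7wk. Slc12a2, the cotransporter that loads cells with chloride, rose by 1.59 (SE 0.32) at 7wk, and Slc26a2, a sulfate transporter, by 0.92 (SE 0.20), a call lost without 3wk A, 3wk C or 7wk A. At 6wk 3 of the 7 rose and 1 fell, where 9.80% and 4.26% of all genes did. Those that rose were Ano1 (2.46, SE 0.20), Slc12a2 (1.07, SE 0.32, lost when any 1 of 10 arrays was left out) and Clcn3 (0.83, SE 0.23, lost when any 1 of 5 was). Slc26a6 fell (-0.75, SE 0.19, limma adjusted p = 0.0231), a call lost without 3wk C, 6wk A or 6wk B. Of 15 tested mucus and goblet cell genes, 3 rose at 5wk and 4 at 7wk, where 3.00% and 7.09% of all genes rose. Muc15, a membrane mucin, rose by 2.92 (SE 0.39) and 3.40 (SE 0.35), Galnt3, which starts mucin-type glycans, by 1.17 (SE 0.22, lost without 5wk A) and 1.26 (SE 0.20), and Fcgbp, a mucus protein, by 2.09 (SE 0.50, lost when any 1 of 6 arrays was left out) and 3.56 (SE 0.45). Muc1, the membrane mucin of the luminal surface, rose by 5.47 (SE 0.83) at 7wk. The median of the mucus list was 0.07 at 5wk and 0.31 at 7wk, beside 0.04 and 0.09 over all genes.

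The chitinase family of Chil1 gave 0 calls of 4 tested genes in either comparison by limma, and 0 at an unadjusted p under 0.05. Chil4, another chitinase-like protein, stood at -0.17 (SE 0.40) and -0.04 (SE 0.36) at 5wk and 7wk, and Chid1, a chitinase-domain protein of lysosomes and secretions, at -0.16 (SE 0.30) and 0.14 (SE 0.27). Ovgp1, the oviductal glycoprotein, stood at -0.32 (SE 0.19) and 0.09 (SE 0.17), and Ctbs, a lysosomal chitobiase, at -0.02 (SE 0.44) and 0.60 (SE 0.39). Chil3 and the active chitinase Chia1 were below the filter. Without the filter limma called 1 gene of the family at 5wk. The ratios of Chil3 were 0.246 to 0.371 at 3wk, 1.35 to 2.14 at 4wk and 1.44 and 2.09 at 5wk. They were 0.975 to 3.30 at 6wk and 0.141 to 0.203 at 7wk, from levels of 13 to 295 steps. Of 8 tested genes for proteins that CHI3L1 is known to bind or signal through, 2 rose at 5wk and 4 at 7wk, where 3.00% and 7.09% of all genes rose, with medians of 0.61 and 0.71. Sdc1, the cell surface proteoglycan syndecan 1, rose by 2.44 (SE 0.22, adjusted p = 0.000433) at 5wk and 1.89 (SE 0.20) at 7wk. The integrin subunit Itgb5 rose by 0.70 (SE 0.15, lost without 3wk A, 5wk A or 5wk B) and 0.78 (SE 0.13). At 7wk the receptor subunit Il13ra1 rose by 0.91 (SE 0.23, lost without 3wk A, 3wk B, 7wk A or 7wk B) and the integrin Itgav by 0.58 (SE 0.16, lost when any 1 of 11 arrays was left out). Il13ra2, the receptor bound by CHI3L1, differed by 0.65 (SE 0.52) and -0.37 (SE 0.46), and its partner Tmem219 by -0.05 (SE 0.23) and -0.02 (SE 0.21), without a call.

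Of the pancreatic lipase family of Pla1a, Lipg and Lpl were tested, with 0 calls at 5wk (limma, 1 at an unadjusted p under 0.05, and 1 call without 3wk A) and opposite calls at 7wk. Lipg, endothelial lipase, rose by 1.19 (SE 0.26, adjusted p = 0.0172), a call lost without 3wk B, 3wk C, 7wk A or 7wk C. Lpl, lipoprotein lipase, which adipocytes make in quantity, fell by 0.55 (SE 0.12, adjusted p = 0.0175), a call lost without 3wk A, 7wk B or 7wk C. Of 12 tested genes that make, sense or break down lysophosphatidylserine or related lysolipids, 1 rose at 5wk and 3 at 7wk, where 3.00% and 7.09% of all genes rose, with medians of 0.00 and 0.14. Mboat1, which returns lysophosphatidylserine to phospholipid, rose by 1.30 (SE 0.23, lost without 5wk A or 5wk B) and 2.0 (SE 0.20). Pla2g2d, a secreted phospholipase A2, rose by 0.79 (SE 0.16) and Lpcat3, a lysophospholipid acyltransferase, by 0.47 (SE 0.11, lost when any 1 of 5 arrays of 3wk and 7wk was left out) at 7wk. The receptor Gpr34 differed by 0.02 (SE 0.89) and 0.33 (SE 0.79) without a call.

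From 6wk to 7wk limma called 0 genes of each family and pathway list, where 0.355% of all genes were called (0.290% upwards, 0.0654% downwards; 38 of 10703). At an unadjusted p under 0.05 limma gave 1361 of all 10703 genes. The lists gave 2 of 2 for the other CLCA genes, 3 of 15 for mucus, 2 of 8 for CHI3L1 partners, 3 of 12 for lysophosphatidylserine genes, 2 of 10 for IL-17 target genes, 1 of 7 for chloride genes and 1 of 2 for the lipase family. The chitinase family, the IL-17 receptors and IL-17 signalling gave 0.

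Other secreted proteins of luminal cells were followed as well, from a list of 35 genes without the 4 described here. At 5wk 14 of the 28 tested rose and 0 fell (3.00% of all genes rose), and at 7wk 15 rose and 0 fell (7.09% of all genes rose), with medians of 1.33 and 1.35. The largest at 5wk were the casein Csn1s1 (4.36, SE 0.65), the Wnt inhibitor Wif1 (4.01, SE 0.94, lost when any 1 of 6 arrays was left out) and Dmbt1, a mucosal scavenger glycoprotein (3.35, SE 0.80, lost when any 1 of 8 arrays was left out). They were followed by Lalba, the alpha-lactalbumin of lactose synthesis (3.01, SE 0.45), and Csn2, beta-casein (2.99, SE 0.61, lost without 3wk B, 5wk A or 5wk B). Leaving out 5wk B brought the count at 5wk from 14 to 8. At 7wk Csn1s1 stood at 6.70 (SE 0.58) and Csn2 at 6.22 (SE 0.55), above the 5.60 of Chil1. From 6wk to 7wk 0 of the 28 were called (limma, 8 at an unadjusted p under 0.05, beside 1361 of all 10703 genes).

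The luminal layer itself, by 31 tested markers, gave 23 rises and 0 falls at 5wk and 28 rises and 0 falls at 7wk (against the same 3.00% and 7.09% of all genes), with medians of 1.74 and 2.01. The largest at 5wk were Mal2, an apical transport protein (3.84, SE 0.57), the transcription factor Gata3 (3.20, SE 0.48), the claudin Cldn8 (3.13, SE 0.69, lost without 3wk A, 3wk B, 5wk A or 5wk B), the adhesion protein Epcam (2.72, SE 0.30) and keratin 7 (Krt7; 2.37, SE 0.46, lost without 5wk A or 5wk B). Without 5wk A the count at 5wk was 10 and without 5wk B it was 12. Averaged over the list, luminal markers stood 0.63, 1.81, 2.08 and 2.03 above 3wk on the log2 scale at 4wk, 5wk, 6wk and 7wk.

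Standing above the mean of the luminal list was largely set by the choice of the 4 genes for their differences from 3wk. Single markers differed more or less than the mean of 2.08 at 6wk, such as Mal2 (4.32) and Elf3 (0.38). Set against that mean, Il17b was higher by a further 4.03 at 5wk (3.83 and 4.23 on the arrays), Chil1 by 2.77 (2.77 and 2.78) and Clca1 by 2.63 (2.23 and 3.04). Pla1a was closest to it, with a further 0.61 at 5wk (0.53 and 0.70) and 1.03 at 7wk (0.91 to 1.11). With low values set to the filter's mark, however, Clca1 at 5wk was 0.36 above 3wk, beside the luminal mean of 1.81. That floor was not applied to the luminal genes, so these values are not on the same footing. Whether Clca1 exceeded luminal genes treated alike was not tested. Without that floor Il17b exceeded the luminal mean by 4.12 at 6wk and 2.39 at 7wk, and Chil1 by 2.43 and 3.58. With the floor Il17b stood 2.50, 2.87 and 1.08 above 3wk at 5wk, 6wk and 7wk, beside luminal means of 1.81, 2.08 and 2.03. These luminal means were taken without the floor, so whether Il17b exceeded luminal genes treated alike was not tested either. How far the differences of the 4 genes go with the amount of luminal RNA in the gland was not tested.

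Within an age the 4 genes hardly moved together. After the mean of each age was taken out, Pearson's r between pairs of them ran from -0.01 to 0.27 over 14 arrays. Il17b deviated in the same direction as the luminal mean on 14 of 14 arrays, with r = 0.63, and its high 4wk array C was the largest such deviation (2.22). For Clca1, Chil1 and Pla1a the same r was 0.15, -0.23 and -0.13. Without that step r between pairs was 0.68 to 0.92, which carries the shared course over the ages. The points share arrays and pools, and the deviations within an age sum to 0, so these are descriptions without a test. On the 3wk arrays and on 4wk A and B Il17b stood at 40 steps or fewer, under the filter's mark described above.

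Over the 14 arrays the probe sets whose course was most like that of Il17b named Ube2z (r = 0.969), Tfap2c (0.960), Tspan8 (0.958), Spint2 (0.954) and Pfn2 (0.954). For Clca1 they were Rtcb (0.946), Tgm2 (0.929), Mycl (0.929), Fam3c (0.928) and Sat1 (0.926), the lowest set of likenesses of the 4 genes. For Chil1 they were Csn3 (0.955), Tgfbr2 (0.954), Ano1 (0.949), Vdr (0.947) and Cxadr (0.945). For Pla1a they were another probe set of Tfap2c (0.985), Stc2 (0.984), Hspa1b by 2 probe sets (0.980 and 0.978) and Plet1 (0.976). After the age means were taken out, r ran from 0.07 (Tgfbr2) to 0.93 (Csn3) for Chil1 and from 0.56 (Pfn2) to 0.87 (Ube2z) for Il17b. It ran from 0.61 to 0.75 for Clca1 and from 0.31 to 0.73 for Pla1a. These probe sets were picked by r over the same arrays, which already holds the part within ages, so these values support nothing. By Spearman's rank correlation, 0, 1, 2 and 1 of the 5 nearest probe sets of Il17b, Clca1, Chil1 and Pla1a were the same.

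Other cell types of the gland that could hold these transcripts were checked through their markers. Of 17 tested macrophage genes, Cd14, which mammary epithelium can also express, rose at 5wk (1.19, SE 0.20, lost without 5wk B) and 7wk (1.30, SE 0.18), and Cd163 fell by 0.67 (SE 0.19) at 7wk, a call lost when any 1 of 11 arrays was left out. The macrophage mean ran from -0.64 to 0.05 over the 3wk arrays and from 0.01 to 0.14 over the 7wk arrays on the log2 scale. Of 11 tested neutrophil genes, Ltf, a milk protein as well, rose at 5wk (2.81, SE 0.30) and 7wk (2.35, SE 0.27), with list means of -0.53 to -0.14 at 3wk and -0.10 to 0.12 at 7wk. At 6wk the neutrophil list mean was highest, at 0.28 (-0.18 to 0.58), and 3 of the 11 genes rose against 3wk, where 9.80% of all genes rose. At an unadjusted p under 0.05 (limma) there were 6 of the 11, beside 3088 of 10703 genes. The 3 that rose were Ltf (2.89, SE 0.27), Prtn3 (1.25, SE 0.35, lost without 3wk C or any array of 6wk) and S100a8 (1.13, SE 0.28, lost without 3wk A or 3wk C). Of 11 lymphocyte and plasma cell genes, Igha rose at 5wk (2.43, SE 0.41, lost without 5wk A) and Igha (3.43, SE 0.37) and Jchain (2.71, SE 0.42) at 7wk. Without a call, Cd8a differed at 5wk by -1.71 (SE 0.45, adjusted p = 0.0550), Cd3e by -1.92 (SE 0.88), Cd3g by -1.11 (SE 0.74) and Cd79a by -0.90 (SE 0.35), genes of T and B cells. The median lymphocyte difference was -0.52 at 5wk and 0.18 at 7wk, and the 3wk, 5wk and 7wk list means were -0.18, -0.45 and 0.48. Of 17 basal genes 6, 10 and 6 rose at 5wk, 6wk and 7wk (medians 1.03, 1.30 and 0.82), where 3.00%, 9.80% and 7.09% of all genes rose. The basal calls were led by Cnn1 at 5wk (3.40, SE 0.33). Of these calls 1 was left at 5wk without 5wk A and 2 without 5wk B, and at 7wk 2 without 7wk C and 3 without 3wk C, 7wk A or 7wk B. Of 21 luminal regulators 6 rose at 5wk (3 without 5wk A or without 5wk B) and 8 at 7wk (5 without 3wk A), among them Sox9 (2.60, SE 0.44, and 3.02, SE 0.39) and Elf5 (1.84, SE 0.32, and 2.91, SE 0.29). Adipocyte genes gave 0 calls of 11 at 5wk (limma, 4 at an unadjusted p under 0.05) and 3 falls at 7wk, where 2.97% of all genes fell. The falls at 7wk were by 0.68 for Fabp4, 0.51 for Cebpa and 0.43 for Adipoq. These calls were lost without 7wk B for Fabp4, and when any 1 of 5 or of 4 arrays was left out for Cebpa and Adipoq. At 6wk 3 adipocyte genes fell (4.26% of all genes fell). They were Lipe (-0.74, lost without 3wk C or 6wk A), Fabp4 (-0.64, lost without 6wk C) and Pnpla2 (-0.57, lost without 3wk A or 6wk A). Of 6 skin keratinocyte genes, Sprr1a rose by 1.09 (SE 0.17, lost without 5wk B) at 5wk and Krt6a fell by 0.98 (SE 0.25, lost when any 1 of 5 arrays was left out) at 7wk. The part of these cell types in the courses of the 4 genes was not tested.

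Controls for RNA quality and handling differed between the ages too. For the pyruvate carboxylase control, the 5' probe set over the 3' one gave mean log2 ratios of -0.09, 0.33, -0.95, -2.37 and 0.82 from 3wk to 7wk, and for actin 0.07, 0.20, -0.21, -0.44 and 0.11, with the lowest values of both at 6wk, where Il17b and Clca1 were highest. Each probe set had been divided by its own median, so these values compare ages and do not give 5' signal over 3' signal. The mean of 18 hybridisation control probe sets was lowest at 7wk (-1.21, against -0.15 to 0.70 at the other ages). With that mean as a covariate the differences from 3wk to 7wk were 5.26 for Il17b, 4.30 for Clca1, 5.31 for Chil1 and 2.88 for Pla1a, and 265 in place of 1077 genes were called at 7wk. Under it 12 secreted and 21 luminal genes were called at 7wk, 1 gene each of the IL-17 target, chloride and lysophosphatidylserine lists, 2 each of the mucus and CHI3L1 partner lists, 1 basal gene, and 0 of IL-17 signalling, the CLCA family and the lipase family.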

How the data were processed

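The deposited table holds 1 linear ratio per probe set and array: the authors had divided every row by the median of its 14 values, as the table itself shows (98.5% of 22690 medians are 1 within 0.001). For the signals behind it, software and scaling were not given in the sources used here. Array medians ran from 0.953 to 1.017, and log2 was taken with no offset.

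Left out were 64 control probe sets and 4087 below 200 recovered steps on all arrays or all but 1, which left 18539. Genes were named by the platform annotation (20393 rows name 1 gene, 691 several, 1606 none; 20364 matched RefSeq by gene identifier). A list gene is the mean of its probe sets that name it alone.

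Using limma 3.58.1 (R 4.3.3), the 14 arrays entered 1 linear model with age as factor, so all ages share 1 estimate of the spread. Tests were two-sided with Benjamini-Hochberg adjustment over all 18539 probe sets or 10703 genes in each comparison, at 0.05. A call is an adjusted p under 0.05. The p-values measure the spread between pools. On simulated data with 18539 probe sets, 45.1% of log2 changes of 1 and 84.9% of changes of 2 were called for 7wk against 3wk, and 5.47% of calls were false. In it 100 probe sets were changed by each size, fewer than the 1574 called in the data, so these rates need not hold for the data. The number of arrays limits the precision.

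The 4 genes and all gene lists were chosen with earlier results of these data known. Named list genes are every tested family member and up to 5 called genes of each other list with the largest differences, with calls that oppose the rest. Genes of receptors and partners without a call were named after their values were seen. Alternatives covered an offset of 0.05, filters of 0 and 400 steps, median centring, quantile normalization, a covariate, the array letters as a block, each array left out, and a floor added after the data were seen. Other steps used Python 3.11.15 with pandas 2.3.3, numpy 2.4.6 and matplotlib 3.10.9.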

Additional observations from a re-analysis of the deposited data

How the results depend on the processing

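In every alternative run, Il17b, Chil1 and Pla1a stayed above 3wk at 5wk and 7wk, and Clca1 did too except at 7wk under the floor. The floor of 200 steps gave Il17b 2.50 at 5wk and 1.08 at 7wk on the log2 scale, and Clca1 0.36 and -0.23. Both Clca1 probe sets averaged gave 1.78 and 1.07. An offset of 0.05 gave Chil1 3.58 and 4.58 and Pla1a 2.15 and 2.76. Quantile normalization gave Chil1 4.04 and 4.92 and Pla1a 2.11 and 2.68. The covariate gave Pla1a 2.88 at 7wk, and without 6wk A and 6wk B Pla1a at 7wk differed from 6wk by -0.12. Leaving out 1 array at a time moved Clca1 between 2.50 and 4.13 at 7wk against 3wk and between -2.13 and -0.50 against 6wk.

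Calls over all probe sets moved more. Leaving out 1 array at a time gave 195 to 622 at 5wk against 3wk, where all arrays gave 671, and 924 to 1528 at 7wk, where they gave 1574. For 7wk against 6wk it gave 38 to 272, where all arrays gave 178. The covariate gave 351 at 7wk against 3wk and 18 against 6wk, no filter gave 95 against 6wk, and 29 were left without 6wk A and 6wk B. The secreted list had 8 to 14 calls at 5wk and the luminal list 10 to 24 with 1 array left out. Fewer arrays were fitted there, and for the other settings the cause was not tested.

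With the array letter as a replicate block, Il17b differed from 3wk by 6.21 at 5wk and 593 probe sets were called. Arrays that share a letter did not deviate together (mean r 0.01 over 26 pairs, -0.0669 to 0.0835, against -0.01 over 52 other pairs), so the letter was taken as a name. The depth of Chil1 and Pla1a over background is unknown, since their level could not be recovered, and 2 or 3 arrays an age limit all values.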
